A study of Mus musculus with 2 samples.

Results

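The cells described here are the insulin-dominant, non-cycling cells of the control library, the beta cells of 9-day-old control mice. They were chosen by their counts. A control barcode had to hold at least 6825 unique molecular identifiers (UMIs, each standing for 1 captured transcript), at least 500 genes and at most 15% mitochondrial UMIs. Of its UMIs at least 30% had to come from the insulin genes Ins1 and Ins2 together and under 5% from each of Gcg, Sst and Ppy. The sum of the cycling genes Mki67, Top2a, Cdk1, Cenpf, Hmmr, Ube2c and Rrm2 had to stay under 10 UMIs. This left 821 of 2496 control cells (32.9%), out of 5447 cells in both libraries. They are called insulin-dominant cells in what follows.

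Islet cells were sorted for a tdTomato reporter and profiled with a droplet kit that counts the 3′ ends of transcripts. The control animals carried Neurod1 Cre/+ and 1 floxed Isl1 allele (Isl1f/+), and the animals labelled Isl1CKO carried Neurod1 Cre/+ and Isl1f/f. Both genotypes therefore carry Cre named for Neurod1, an endocrine gene, and the control cells can have lost Isl1 on 1 allele, so no group is free of Cre. Each genotype is 1 library of 6 pooled samples from pups aged 9 days, dissociated with the transcription inhibitor actinomycin D, so no difference has a replicate check and no test was possible. All intervals are exact at 95% and hold the error of counting alone.

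Beta cells make, store and release insulin. Glucose enters them through Slc2a2, and the ATP made from it closes potassium channels, opens calcium channels and triggers release of the granules. Newborn beta cells are immature: in the weeks after birth they gain Ucn3, Mafa and other genes of regulated secretion and lose Npy. Isl1, a LIM-homeodomain protein, regulates transcription in the endocrine cells of the islet.

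The promoters of 4 genes are shown because these genes are among the most abundant in the cells (Ins1 and Iapp), mark their maturation (Ucn3) or are counted in few of the cells (Npy). Each line is the 250 bases before the transcription start, 5′ to 3′ on the gene's own strand, from RefSeq on GRCm38.p6. Capitals mark every TAAT, the core of many homeodomain sites, and every CATCTG, an E-box of the kind bound by Neurod1, on either strand; neighbouring matches to TAAT can overlap. The windows are chr19:52264047-52264296 (plus strand) for Ins1, chr6:142298175-142298424 (plus) for Iapp, chr6:49822460-49822709 (plus) for Npy and chr13:3945350-3945599 (minus) for Ucn3. Of the 10 beta markers, 8 had an entry.
Ins1: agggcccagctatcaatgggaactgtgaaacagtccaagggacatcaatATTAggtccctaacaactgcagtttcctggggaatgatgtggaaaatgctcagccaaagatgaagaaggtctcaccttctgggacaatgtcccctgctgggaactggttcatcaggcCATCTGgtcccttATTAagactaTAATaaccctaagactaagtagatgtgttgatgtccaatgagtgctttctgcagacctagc
Iapp: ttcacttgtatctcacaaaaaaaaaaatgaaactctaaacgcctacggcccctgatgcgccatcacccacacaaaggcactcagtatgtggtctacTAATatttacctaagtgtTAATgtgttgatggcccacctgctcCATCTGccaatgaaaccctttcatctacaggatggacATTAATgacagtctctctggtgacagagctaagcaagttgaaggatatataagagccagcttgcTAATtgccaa
Ucn3: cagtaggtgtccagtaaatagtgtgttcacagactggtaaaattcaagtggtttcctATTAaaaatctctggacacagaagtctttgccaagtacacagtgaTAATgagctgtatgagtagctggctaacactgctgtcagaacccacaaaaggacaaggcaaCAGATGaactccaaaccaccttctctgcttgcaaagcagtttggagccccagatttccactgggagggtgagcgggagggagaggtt
Npy: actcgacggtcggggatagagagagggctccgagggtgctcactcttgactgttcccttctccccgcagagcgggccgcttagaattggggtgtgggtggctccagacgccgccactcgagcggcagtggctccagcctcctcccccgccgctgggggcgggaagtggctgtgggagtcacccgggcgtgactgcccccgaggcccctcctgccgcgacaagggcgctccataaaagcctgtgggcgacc
TAAT was found 3 times before Ins1, 5 times before Iapp, 2 times before Ucn3 and 0 times before Npy. CATCTG was found 1 time each before Ins1 (bases -84 to -79 from the start), Iapp (-111 to -106) and Ucn3 (-87 to -82), and 0 times before Npy. TGCTGAC, a core of Maf sites, was found in none of the 4 windows. Of 32851 mouse promoters of the same length, 54.9% held TAAT, 14.4% CATCTG and 3.81% TGCTGAC. These are matches of letters and not sites shown to be bound.

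The limits of the rule fell in sparsely filled ranges. The lowest insulin share inside was 30.6% of a cell's UMIs and the highest outside 28.8%. Only 12 control cells lay between 20% and 30%, and 18 insulin-dominant cells between 30% and 40%. Another hormone kept out 23 cells that passed the insulin limit, 14 by Gcg, 9 by Ppy and 0 by Sst. The highest shares kept in were 3.93% for Gcg, 3.59% for Sst and 4.33% for Ppy, and the lowest left out were 5.43% for Gcg and 5.40% for Ppy. The cycling limit left out 38 cells with 10 to 161 UMIs of those genes, of which 7 had 10 to 14. Among the cells kept, 688 had 0 such UMIs, 83 had 1 and 2 had 9.

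**Figure D1:**
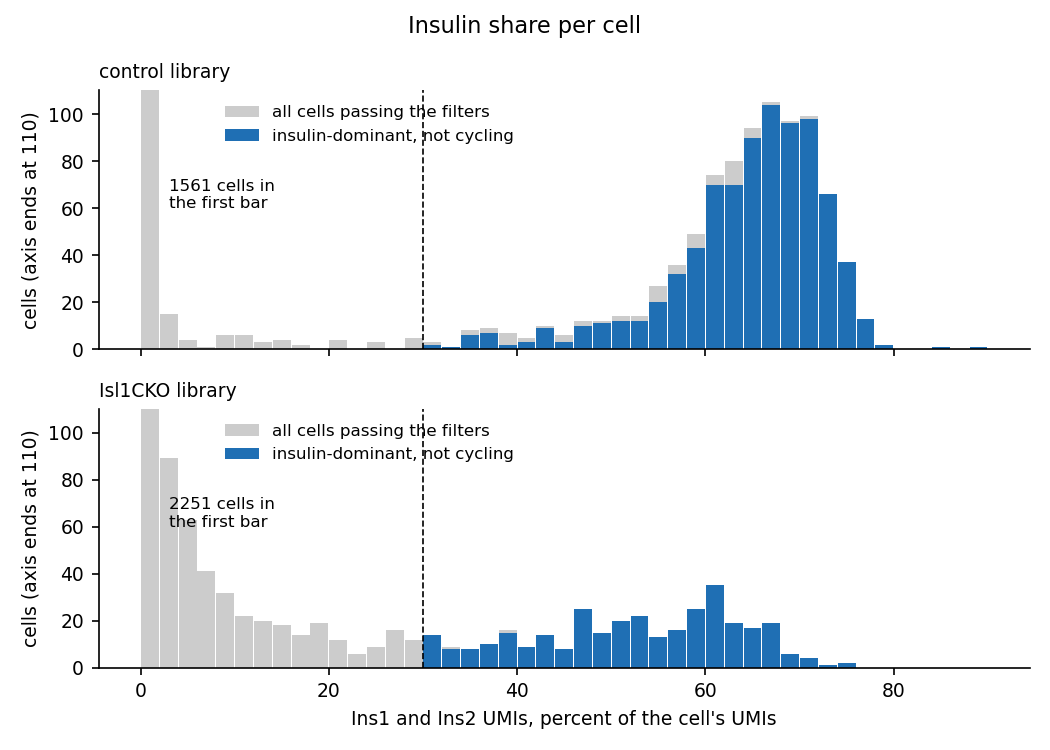
Share of a cell's UMIs that came from Ins1 and Ins2 (x axis, percent) against the number of cells (y axis, cut, with the count of the tall bar written on it), for control cells and for cells of the library labelled Isl1CKO. The limit of 30% lies in a sparsely filled stretch of the control cells, between 28.8% and 30.6%.

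The insulin-dominant cells were the deepest class of the control library, with a median of 48659 UMIs (7056 to 120914) and 4371 genes per cell and 39428303 UMIs in all. Mitochondrial UMIs had a median of 0.719%. Outside the hormones a cell held a median of 14306 UMIs, close to the 13686 of glucagon-dominant cells. Doublet calling marked 22 insulin-dominant cells (2.68%), of which 16 lay in a group of 17 cells led by Sst, described below. Cells of both sexes were present, 565 with Y-linked and no Xist UMIs, 172 with Xist and no Y-linked UMIs, and 30 with both. A barcode was shared with a cell of the other library in 3 cases. Of the markers of other cell types, mesenchymal markers summed to 1.24 UMIs per 1000000 (CPM), endothelial markers to 0.254, immune markers to 7.0 and neural and glial markers to 3.86 CPM. Ductal markers summed to 143 CPM, of which Krt7 gave 120 and Krt19 13.1, against 212 CPM in glucagon-dominant cells and 179 in barcodes without cells. Pdgfrb, Lum, Kdr, Cdh5, Flt1, Ptprc, Sox10, Prph, Frmd7 and Pnlip had 0 UMIs. Acinar markers summed to 53.2 CPM against 2673 CPM in barcodes without cells, and 5 cells held 39.1% of those UMIs. A single cell held 16687 UMIs of the 5 erythroid markers (27.6% of its own), and the next highest cell held 1.

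The label of beta cell was checked against 10 markers, of which 9 stood above 10 CPM. Ins2 (chr7:142678656-142679726) was the most abundant transcript at 436595 CPM (436389 to 436801), and Ins1 (chr19:52264297-52265015) stood at 220291 CPM (220145 to 220438). Per cell, Ins2 ran from 7558 UMIs at the 5th percentile through a median of 21690 to 31438 at the 95th. Ins1 ran from 3466 through 10920 to 16100. Together the insulin genes took a median of 66.2% of a cell's UMIs, with 47.9% at the 5th and 74.3% at the 95th percentile. The rule required these genes, so their level is a description.

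Ins2 per Ins1 had a median of 2.03 over the cells, with 1.04 at the 5th and 3.56 at the 95th percentile. It was spread most in group 3 of the clustering described below (0.831 to 8.79, against 1.37 to 2.61 in group 1). Ins1 exceeded Ins2 in 37 cells (4.51%). Under the same rule the Isl1CKO-labelled library gave a median of 1.32 and Ins1 exceeded Ins2 in 80 of 325 cells (24.6%). The transcripts of the 2 genes share no identical run longer than 56 bases, and the sources used here do not say how reads matching both were counted.

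Iapp (chr6:142298425-142303820), which encodes the islet amyloid polypeptide released with insulin, followed at 32792 CPM (32735 to 32849). Its 5th percentile, median and 95th percentile were 693, 1552 and 2518 UMIs per cell. Next in abundance were the granule protein gene Chga at 7482 CPM (7455 to 7509) and, with Malat1 and Gm42418 above it, Pyy, the peptide YY gene, at 4711 CPM. The list of the 20 most abundant transcripts also held the granule genes Pcsk1n (2196 CPM), Pcsk2 (1556), Chgb (1439) and Scg2 (1327), as well as Ppy (1213) and Ttr (884). Levels in CPM are counts of 3′ ends, not scaled by gene length.

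Hormones of other islet cells were present as low counts in most cells. Gcg, the glucagon gene, was counted in 99.9% of cells at a median of 14 UMIs, and stood at 488 CPM, which is 1.03% of its level in barcodes without cells. Mesenchymal cells of the same library, which should lack glucagon, had Gcg UMIs in 100% of cells at a median depth of 8121 UMIs. Ghrl, the ghrelin gene, stood at 0.969% of its empty-barcode level. Were all Gcg UMIs free RNA, the same source would give 165 CPM of Sst, 309 of Ppy and 469 of Pyy, against 560, 1213 and 4711 CPM found. For Ucn3 it would give 0.80 against 153 CPM found, and for Npy 0.19 against 54.3 CPM. Ghrl stood at 3.98 CPM against 4.24 from that source. The share of cells with a Gcg UMI was near its ceiling in both classes, so it cannot tell background from expression. Gcg was also uneven, with 38 UMIs at the 95th percentile and 2024 in the highest cell. Whether some of these cells make Gcg was not tested. Ppy, Pyy, Ucn3 and Npy stood above the free-RNA levels scaled to Gcg. Sst did so only through the 17 cells of group 6, described below, which held 19028 of its 22070 UMIs: in the other 804 cells Sst stood at 79.0 CPM against 166 from free RNA, while Ppy stood at 862 against 311 and Pyy at 4098 against 473.

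The remaining markers were found in most cells, except Npy and Mafa. Slc2a2 (chr3:28697903-28728361), the glucose transporter, stood at 381 CPM (375 to 387) and was counted in 98.4% of cells, with 3, 17 and 39 UMIs at the 5th percentile, median and 95th percentile. G6pc2 (chr2:69211073-69227993), an islet glucose-6-phosphatase, stood at 295 CPM (290 to 301) with 2, 12 and 33 UMIs. Ucn3 (chr13:3940688-3945349), a peptide gene that marks mature beta cells in mice, stood at 153 CPM (149 to 157) with 0, 5 and 21 UMIs, and was counted in 86.4% of cells. The regulators Pdx1 and Nkx6-1 stood at 149 and 120 CPM and were counted in 98.2% and 96.7% of cells. Mafa (chr15:75745501-75748321), an activator of insulin transcription that comes on late, had 117 UMIs in all, 2.97 CPM (2.45 to 3.56), in 12.2% of cells. Npy (chr6:49822710-49829507) was counted in 8.89% of cells. After thinning each cell to 6825 UMIs the shares were 85.3% for Slc2a2, 79.8% for G6pc2, 52.9% for Ucn3, 6.58% for Npy and 2.31% for Mafa.

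**Figure D2:**
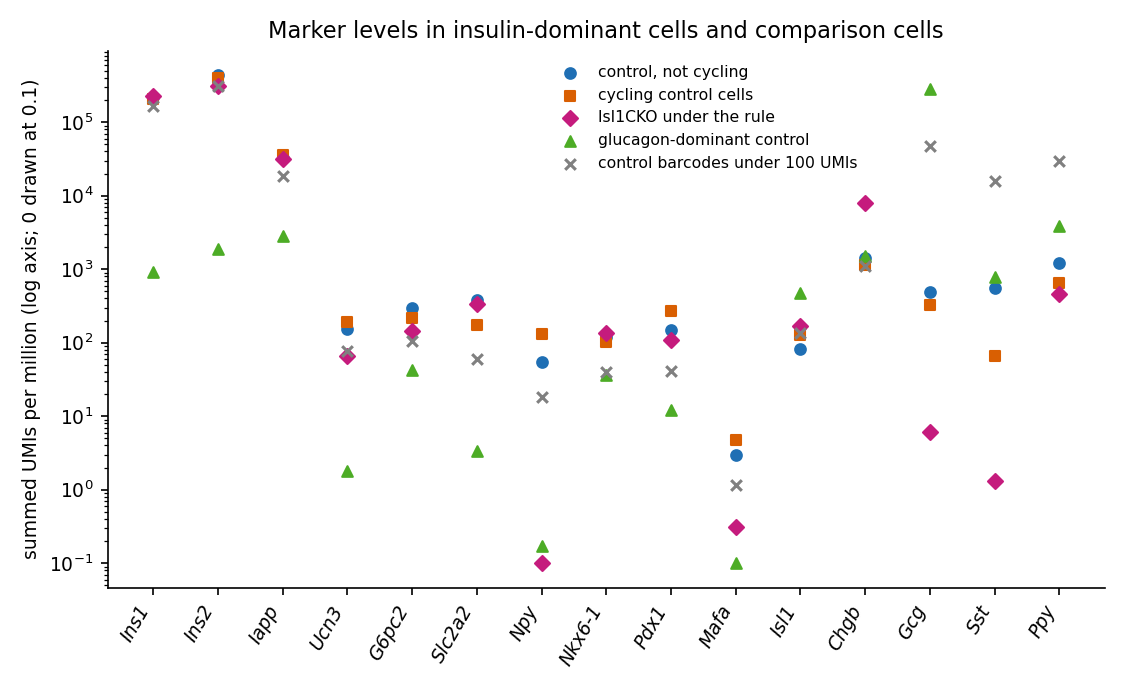
Level of the beta markers, Isl1, Chgb and hormone genes of other islet cells (y axis, CPM, log scale, 0 drawn at 0.1) in control insulin-dominant cells, the cycling insulin-dominant cells, the Isl1CKO cells under the same rule, glucagon-dominant cells and barcodes without cells. Ucn3 stands at 153 CPM in the insulin-dominant cells and 1.80 CPM in glucagon-dominant cells, and Npy is at 0 in the Isl1CKO cells.

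Transcription factors of the beta cell ranged widely in count. Neurod1 was the highest of 23 at 227 CPM, in 99.5% of cells, though its exons overlap Cerkl on the same strand and its count is uncertain. Pax6 (128 CPM), Mlxipl (85), which responds to glucose, and Isl1 (80.9; 89.2% of cells) were among those at lower levels. Nkx2-2 (56.8 CPM), the glucocorticoid receptor gene Nr3c1 (53.3) and Insm1 (45.1) lay below them. The lowest were Foxa1 with 1 UMI and Esrrg, a receptor linked to mature mitochondrial metabolism, with 26 UMIs.

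Genes of glucose sensing and excitation spanned a wide range of counts. Besides Slc2a2 and G6pc2 the highest were the calcium pump gene Atp2a2 (317 CPM) and Mdh1 (129), a shuttle enzyme. The sulfonylurea receptor gene Abcc8 stood at 101 CPM in 98.2% of cells, while its partner Kcnj11 had 20 UMIs in all (0.507 CPM). The ubiquitous glucose transporter gene Slc2a1 stood at 1.95 CPM. Among calcium channel genes Cacna2d1 (59.2 CPM) was above Cacna1d (23.6), Cacna1a (16.4) and Cacna1c (6.62). The gap junction gene Gjd2, which couples beta cells, stood at 63.3 CPM and Trpm5, a cation channel, at 46.4.

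The highest granule genes were far more abundant than the listed exocytosis genes. The convertase genes Pcsk2 and Pcsk1 stood at 1556 and 217 CPM, the carboxypeptidase gene Cpe at 620 and the zinc transporter gene Slc30a8 at 457. Of the granins, Vgf was lowest at 3.37 CPM. Among the listed exocytosis genes Tmed10 (190 CPM), Syt13 (186) and Cplx2 (171) were highest, and Syt7, a calcium sensor of insulin release, stood at 52.2 CPM.

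Genes of protein folding in the endoplasmic reticulum were abundant. Hspa5 stood at 805 CPM, Hsp90b1 at 763, Sec61b at 673 and Pdia3 at 650, and Ero1lb, the beta-cell thiol oxidase, at 232. Ddit3, a gene of prolonged reticulum stress, stood at 7.43 CPM and Trib3 at 0.101. Txnip, a gene that glucose induces, stood at 150 CPM but was uneven, with 0, 3 and 30 UMIs at the 5th percentile, median and 95th percentile and 125 in the highest cell.

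Among receptors, Prlr (66.7 CPM), the prolactin receptor gene, Ghr (55.8), the growth hormone receptor gene, and Ffar1 (46.7), the fatty acid receptor gene, were highest. The adrenergic receptor gene Adra2a, which restrains insulin release, stood at 27.4 CPM, and the incretin receptor genes Gipr and Glp1r at 24.1 and 6.06. Htr2b and Npy1r had 0 UMIs. Of the somatostatin receptor genes, Sstr3 stood at 8.85 CPM and Sstr1, Sstr2 and Sstr5 had 2, 3 and 6 UMIs.

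The genes known as disallowed in mature beta cells were scarce. Of 20 on the list, Hk2 and Rest had 0 UMIs and 16 stood between 0.0254 and 0.812 CPM, including the lactate dehydrogenase gene Ldha with 6 UMIs and the pyruvate transporter gene Slc16a1 with 2. C1qbp (24.1 CPM) and Oat (10.3) were the exceptions.

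Variation between cells was largest for hormones. With all cells thinned to the same depth, the variance over the mean of counts had a median of 1.07 over 1914 genes. Sst reached 139, Pyy 121, Ins2 96.3, Ppy 86.0, Ins1 83.0 and Gcg 63.8. The peptide genes Iapp and Npy reached 17.1 and 9.20. Among other genes Malat1 reached 35.8, Chgb 26, Chga 13.6 and Rbp4 12.6. Spearman coefficients over the 821 cells were weak: with Npy the highest were Ucn3 (0.16), G6pc2 (0.15) and Nnat (0.15), and with Ucn3 the highest was G6pc2 (0.21). The coefficients largest in size were negative. With Npy they were Pyy (-0.23), Pcsk1n (-0.22) and Chga (-0.21). With Ucn3 they were Pyy (-0.27), Rbp4 (-0.23), Txnip (-0.23) and Chga (-0.22). These counts share a library and a depth, so the coefficients only describe these cells.

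Clustering of the insulin-dominant cells alone, without hormone, rule, mitochondrial, ribosomal, haemoglobin and sex-linked genes, gave 6 groups. The groups are called by number. Genes that separate them were used to form them, so their differences are descriptions and carry no support of their own. Group 1 held 344 cells (41.9%), group 2 262 (31.9%), group 3 80 (9.74%), group 4 61 (7.43%), group 5 57 (6.94%) and group 6 17 (2.07%). Groups 3 and 6 stayed together under every other clustering setting tried, with at least 96.3% and 94.1% of their cells in 1 cluster, though that cluster also took cells of other groups in some. Group 1 was split by some settings, with 46.5% to 92.2% of its cells together.

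Group 1 was led by Npy, Grin1, RP23-477A19.4, Cox6a2 and Col6a3 and had the highest counts of several maturation genes. Of 9566 genes compared with the other insulin-dominant cells, 1.13% were higher and 3.12% lower by 2-fold or more relative to the median gene. Of 19 maturation genes 6 were higher (G6pc2, Cox6a2, Trpm5, Ucn3, Ntrk2 and Prlr) and 0 lower, with a median log2 ratio of 0.69. Ucn3 stood at 231 CPM in group 1 and at 88.9, 66.9, 49.6, 150 and 125 CPM in groups 2 to 6. Ucn3 was counted in 332 of the 344 cells of group 1, 51 of 80 in group 3 and 30 of 61 in group 4. Cox6a2, a muscle-type cytochrome oxidase subunit also made by beta cells, stood at 22.3 CPM in group 1 and at most 6.36 in any other. Median depth was 51583.5 UMIs in group 1, and the CPM scale takes out depth but not the insulin share, which was 68.6% there and 53.2% to 66.8% in the others.

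Genes that led group 2 included Ptger3, Mcm3, Slc6a20a and St6galnac2. Of 9256 genes compared with the other insulin-dominant cells, 0.724% were higher and 1.6% lower. Txnip stood at 246 CPM against 36.6 CPM in group 1, and Cd79a, an antigen receptor subunit gene, at 46.4 against 3.87. The 5 cells with the most acinar UMIs, up to 432 in 1 cell, were all in group 2; their part in its leading genes was not tested.

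Group 3 was led by Cldn5, Wfdc16, Ppp1r14c, Rasgrf2 and Col19a1 and was the Chgb-rich group. Of 5843 genes compared with the other insulin-dominant cells, 2.31% were higher and 6.71% lower. Chgb (chr2:132781642-132795079), a granin, stood at 5694 CPM in group 3 and between 1012 and 1967 CPM in the other groups. Its median was 166.5 UMIs per cell there and 33 to 105 in the others. Cldn5, a tight junction gene, was counted in 39 of the 80 cells, at 28.0 CPM against at most 0.457 CPM in any other group. Fev, a regulator of immature endocrine cells, was counted in 53 of 80 cells, at 36.1 CPM against 2.05 to 21.2 CPM elsewhere. It was not particular to group 3, since 12 of the 17 cells of group 6 also held it. Of 18 maturation genes 9 were lower and 0 higher, and Isl1 was lowest of all groups at 39.6 CPM.

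Group 4 was led by Calb1, Apobec2, Tspan8, Pyy and Ppy. Of 5412 genes compared, 0.868% were higher and 6.49% lower. Pyy stood at 18159 CPM and Ppy at 4700 CPM there, against 1633 and 583 CPM in group 1. Ppy was uneven over the cells of group 4, with 4, 26 and 699 UMIs at the 5th percentile, median and 95th percentile, so its sum came mostly from a part of the cells. Pyy had 63, 553 and 1637 UMIs. Slc2a2 was lowest in group 4 at 225 CPM. Its cells were the shallowest, with a median of 35592 UMIs, and 3 of 61 were called doublets.

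Group 5 was led by Stmn1, Cenpf, Mki67, Hist1h4j and Spp1, in spite of the limit on cycling genes, and 8 of its 57 cells held 5 or more cycling-gene UMIs. Of 6294 genes compared, 1.37% were higher and 6.47% lower. Hist1h2bc, a histone gene, stood at 1064 CPM against 122 to 246 CPM in the other groups, and Nnat, an imprinted gene that aids insulin processing, at 624 CPM. Npy stood at 31.6 CPM in group 5 and Ucn3 at 150 CPM, each second to group 1.

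Group 6 was led by Sst, Hhex, Arg1, Ppy and Cd24a. Of 4378 genes compared, 3.7% were higher and 6.51% lower. Sst took a median of 1.94% of UMIs in these 17 cells, from 0.441% to 3.59%, under the limit of the rule. Hhex, the regulator of delta cells, was counted in 17 of 17 cells and the somatostatin marker Rbp4 was also higher. Doublet calling marked 16 of the 17 cells, and 5 held both Xist and Y-linked UMIs, against 12 of 344 in group 1. Without group 6 and the haemoglobin-rich cell, Sst in the insulin-dominant cells went from 2.93 to 0.11 on the log2 scale against the cycling cells, while the counts of changed genes in each comparison below stayed within 1.5 times.

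**Figure D3:**
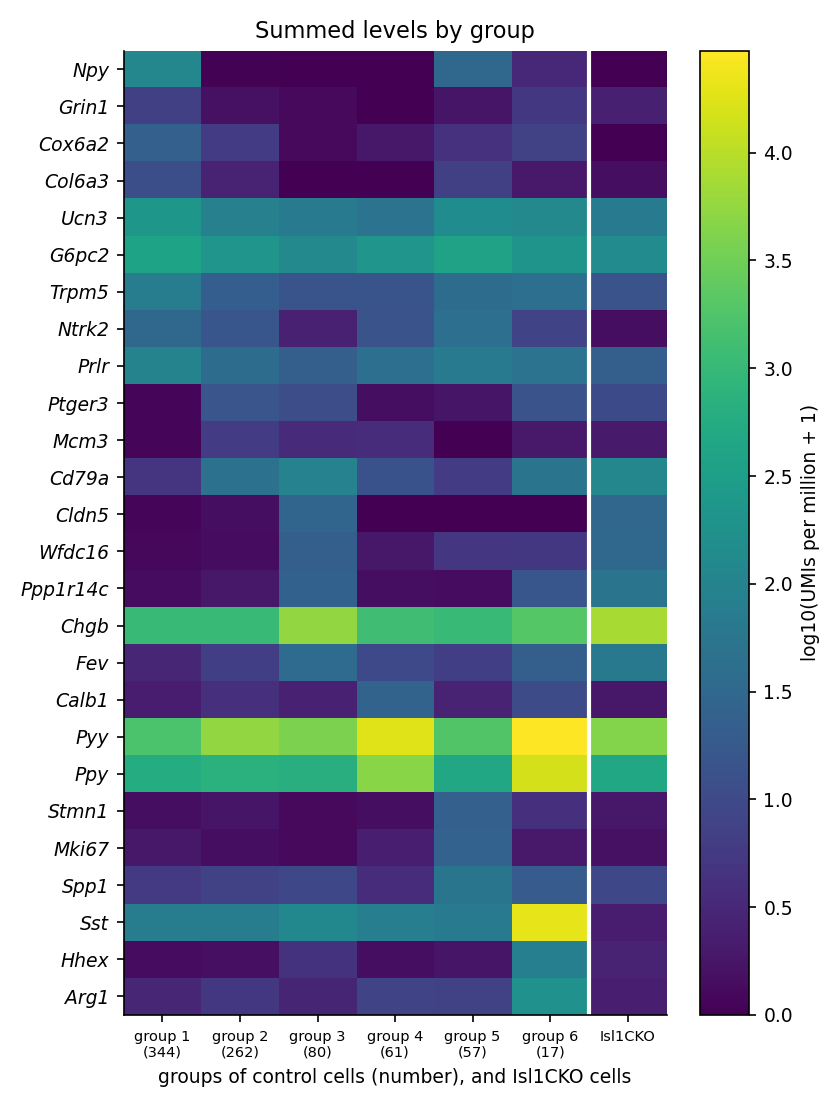
Levels of named genes (rows) in groups 1 to 6 and in the Isl1CKO cells under the same rule (columns), as log10 of CPM plus 1. Chgb, Fev and Cldn5 are high in group 3 and in the Isl1CKO cells, Fev is also found in most cells of group 6, and Npy is high in group 1.

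Npy, a peptide gene of immature beta cells, was made by few cells and in large amounts. A UMI was counted in 73 of 821 cells (8.89%, 7.03 to 11.1), at least 2 in 63 (7.67%, 5.95 to 9.71) and at least 10 in 42. The median of the cells with a UMI was 15 and the highest 190, and 20 cells held 71.4% of the UMIs. No glucagon-dominant cell held 2 Npy UMIs (0 of 561, 2 with a single UMI), nor did any Ppy-dominant cell (0 of 190). Among somatostatin-dominant cells 1 of 329 did, with 20 UMIs. The window shown for Npy held none of the 3 motifs searched. The windows of Pdx1, Nkx6-1 and Chgb held none either, and these genes were counted in 98.2%, 96.7% and 100% of cells. A role of the motifs was not tested.

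Cells with at least 2 Npy UMIs matched the others in depth, with medians of 49105 and 48491 UMIs, and 58 of 63 were in group 1, 4 in group 5 and 1 in group 6. They occurred in both sexes, in 47 of 565 Y-only cells (8.32%) and 12 of 172 Xist-only cells (6.98%). Against the 278 cells of group 1 with no Npy UMI, 8 of 5629 genes were higher (0.142%) and 79 lower (1.4%). Besides Npy these included Ppy (1705 against 401), Gcg (685 against 324) and Cdkn1a (61.4 against 27.6), an inhibitor of the cell cycle. Ucn3 stood at 317 against 211 CPM, a log2 ratio of 0.64 (0.53 to 0.74), under the 2-fold limit. Sst stood at 474 against 74.5 CPM, but with the 58 Npy cells of group 1 alone, a comparison added after the data were seen, it stood at 88.9 CPM, a log2 ratio of 0.33 in place of 2.72. Ppy (1.99), Gcg (1.22), Cdkn1a (1.33) and Ucn3 (0.69) kept their side of the limit there. Of the 63 cells 2 were called doublets.

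**Figure D4:**
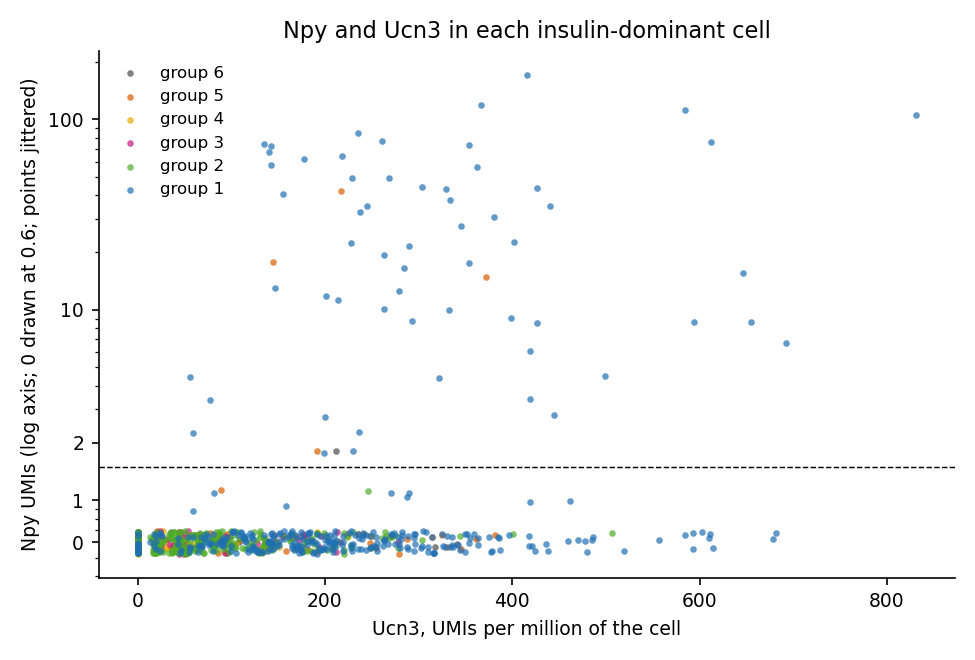
Npy UMIs (y axis, log scale, jittered, 0 drawn at 0.6) against Ucn3 in CPM of the same cell (x axis) for the 821 insulin-dominant cells, coloured by group, with a dashed line between 1 and 2 Npy UMIs. Of the 63 cells above the line 58 are in group 1, and most cells are at 0 Npy UMIs.

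Levels in cells of each sex came from different animals of the pool. Of 8378 genes, 67 were higher and 16 lower by 2-fold or more in the 565 Y-only cells, set against the 172 Xist-only cells, 0.991% in all. Of the markers Ins1 stood at 222211 and 212977 CPM, Ins2 at 435915 and 439630, Ucn3 at 158 and 138, G6pc2 at 301 and 280, Slc2a2 at 380 and 390 and Npy at 57.3 and 43.1 CPM. None of these differed by 2-fold. Col6a3, a collagen gene that leads group 1, stood at 7.05 against 0.496 CPM and Cartpt, a neuropeptide gene, at 3.49 against 0.124. Ndufa12, a complex I subunit gene, was lower at 14.1 against 42.0 CPM, and Ptger3, a prostaglandin receptor gene that leads group 2, at 4.47 against 11.3.

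The nearest control cells were the 38 insulin-dominant cells above the cycling limit. Of 5776 genes compared, 592 were higher (10.2%) and 485 lower (8.4%) in the non-cycling cells by at least 2-fold relative to the median gene. The cycling sum held 1663430 UMIs, so many of the higher genes rest on few counts there. A lower gene was compared only with at least 50 UMIs in that sum. The interval stayed above 0 for 194 of the higher genes and below 0 for all 485 lower ones. The filter and the unequal sums shape that split, so it is no evidence that the lower genes are firmer. Hormone levels were close, with log2 ratios of -0.09 for Ins1, -0.04 for Ins2 and -0.30 for Iapp. Genes of division outside the rule were lower, as the rule built in: Ccna2, Cdc20, Cenpa and Tpx2 lay between -8.15 and -11.40. Of 14 listed cell-cycle genes 10 were lower and 1, Ccnd1, was higher at 1.11.

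Npy was lower in the non-cycling cells than in the cycling ones, at 54.3 against 133 CPM, a log2 ratio of -1.47. The cycling cells with at least 2 Npy UMIs were 7 of 38 (18.4%, 7.74 to 34.3), an interval that overlaps that of the non-cycling cells. Pdx1 stood at 149 against 274 CPM (-1.05, -1.19 to -0.91) and Nnat at 303 against 572 CPM (-1.09). These 3 calls were lost under other settings: with the cycling limit at 3 UMIs, Npy (-0.89), Pdx1 (-0.71) and Nnat (-0.95) stayed under 2-fold. So did Pdx1 (-0.63) and Nnat (-0.67) over UMIs outside hormones without centring, and Pdx1 (-0.83) and Nnat (-0.87) at a minimum of 20 UMIs. Of 21 genes of protein folding, Hsp90b1 (-1.07) and the stress gene Ddit3 (-2.74) were lower and Txnip (1.31) higher. Of 17 maturation genes Cox6a2 (2.14, from 12.0 and 2.40 CPM) and Prlr (1.00, 0.59 to 1.44) were higher and 0 lower, with a median of 0.09. Cox6a2 rested on 4 UMIs in the cycling cells. Of all genes 10.2% were higher and 8.4% lower, so neither list stands apart by these counts. The maturation count also moved with the setting. It was 0 higher and 1 lower of 15 in thinned cells, and 4 higher and 1 lower of 18 at a minimum of 20 UMIs. Ucn3 (-0.49, -0.65 to -0.32), Slc2a2 (0.93, 0.77 to 1.10) and G6pc2 (0.28) stayed under 2-fold.

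Other genes high in the non-cycling cells were the glycolytic gene Aldoa (2.29, 1.81 to 2.81), the defensin gene Defb1 (2.51), the calcium pump regulator gene Mrln (1.65), the incretin receptor gene Gipr (1.56) and Phactr1 (1.79). Sst (2.93) was among them but came from group 6, and Pyy (1.59) was highest in groups 4 and 6. Cd79a rested on 4 UMIs in the cycling cells (3.32, 1.96 to 5.20).

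Under the same rule the Isl1CKO-labelled library gave 325 cells with 12995641 UMIs and a median of 40338 UMIs per cell. Isl1 itself (chr13:116298270-116309688) stood at 80.9 CPM in the control cells and 168 CPM in the Isl1CKO-labelled cells; these tags come from the 3′ end and may miss the deleted exons, so they test neither the deletion nor the label. The insulin share was lower there, with a median of 53.5% against 66.2%, and 206 of the 325 cells (63.4%) had Xist and no Y-linked UMIs against 172 of 821 (21.0%). Neither the insulin share nor the mix of sexes can be told apart from genotype in the pooled ratios, so values matched for each follow below.

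Of 9586 genes compared, 397 were higher (4.14%) and 447 lower (4.66%) in the control cells by at least 2-fold relative to the median gene. The interval excluded 0 for each of these genes and lay wholly past 2-fold for 166 and 267. The control sum is larger, so a gene lower in it had to reach a higher CPM to be compared. Ins2 had a log2 ratio of 0.83 and Ins1 of 0.33, with 436595 against 314927 CPM for Ins2 and 220291 against 224664 for Ins1. Iapp lay at 0.42 (32792 and 31563 CPM).

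Of 20 maturation genes compared, 10 were higher in the control cells by 2-fold or more and 1, Esrrg, lower, with a median log2 ratio of 0.92 against 0 for all genes. Ucn3 stood at 153 against 65.8 CPM (1.58, 1.48 to 1.68) and G6pc2 at 295 against 144 CPM (1.40, 1.33 to 1.47). Mafa, the late activator of the insulin genes, had 117 against 4 UMIs (3.63, 2.24 to 5.53). Cox6a2 had 472 against 0 UMIs, a log2 ratio of 6.06 against the floor of 3 UMIs, with an exact lower bound of 5.76. Trpm5 (2.22), Glp1r (2.27), Prlr (1.99), Ntrk2 (5.93, from 865 and 6 UMIs), Sytl4 (1.20), a granule docking gene, and Ero1lb (1.03) were the others. Slc2a2 (0.54), Slc30a8 (0.53) and Nkx6-1 (0.20) stayed under 2-fold.

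Npy had 2142 UMIs in the control cells and 0 in the Isl1CKO cells, 8.24 higher on the log2 scale against the floor, with an exact lower bound of 7.94. A count of 0 of 325 cells allows a share of cells with an Npy UMI of up to 0.923% at 3 counts of the total, and the exact interval reaches 1.13%. The share in the control cells was 8.89%. Cells of 1 pooled library are not replicates, so these bounds describe each library and do not test the genotype. Dapl1 (7.70, 5.84 to 10.74) rested on 2 Isl1CKO UMIs and the lysyl oxidase gene Loxl2 (7.09, 4.6 to 12.40) on 1. P2ry1, a purinergic receptor gene, stood at 15.2 against 0.769 CPM (4.66). Sst (9.10) and Gcg (6.71) also ranked high, but the control library carries free Gcg and Sst RNA, and with that background subtracted Gcg turned to -5.91, since Gcg set the scale of the subtraction. Scg2, a granin, was higher at 1327 against 256 CPM (2.74, 2.69 to 2.79).

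Genes of immature beta cells went both ways. Of 9 compared, 7 were lower in the control cells and 2, Npy and Nnat, higher, with a median of -1.63. Fev (chr1:74881501-74885473) stood at 7.08 against 63.3 CPM (-2.80). Neurog3, the regulator that starts endocrine fate, stood at 1.34 against 8.23 CPM (-2.25), the gastrin gene Gast at 1.55 against 18.6 (-3.23) and Aldh1a3 at 0.659 against 4.31 (-2.35). Cdkn1c (-1.63) and Dlk1 (-1.14), imprinted growth genes, were lower as well.

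The genes most depleted in the control cells were Slc38a5, a glutamine transporter gene, at 9.28 against 269 CPM (-4.50), Cidea, a lipid droplet gene (-5.84, from 3 and 73 UMIs), Cacna2d3, a calcium channel subunit gene (-5.01), Dnah11 (-5.58), Pros1, the protein S gene (-4.50), Ccl5 (-4.70), Vstm2a (-5.38), Ppp1r14c (-3.84), Asic2 (-4.35) and the secretin gene Sct (-4.09). Chgb stood at 1439 against 7855 CPM (-2.09) and Msln (chr17:25748613-25754378), a surface protein gene, at 77.2 against 738 CPM (-2.90). A list of 12 genes picked earlier from these libraries for leading a Msln-rich cluster had 10 lower and 2 higher (median -3.91), which is no independent evidence. Among channel genes Cacna1a (-1.08) and Cacna2d1 (-1.17) were lower.

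Of 22 transcription factor genes 2 were higher (Mafa and Mnx1) and 2 lower, Esrrg among them, with a median of -0.15. Pdx1 (0.80), Neurod1 (0.02), Pax6 (0.13) and Nkx2-2 (0.08) stayed under 2-fold. Receptors had 7 of 20 higher and 1 lower, among them Gpr119 (3.76, from 128 and 4 UMIs) and Adra2a (1.63). Exocytosis genes had 0 of 19 past 2-fold in either direction, and mitochondrial genes 1 of 18, Cox6a2. Protein folding genes had 3 of 23 higher (Txnip, Ero1lb and Creld2) and 0 lower.

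**Figure D5:**
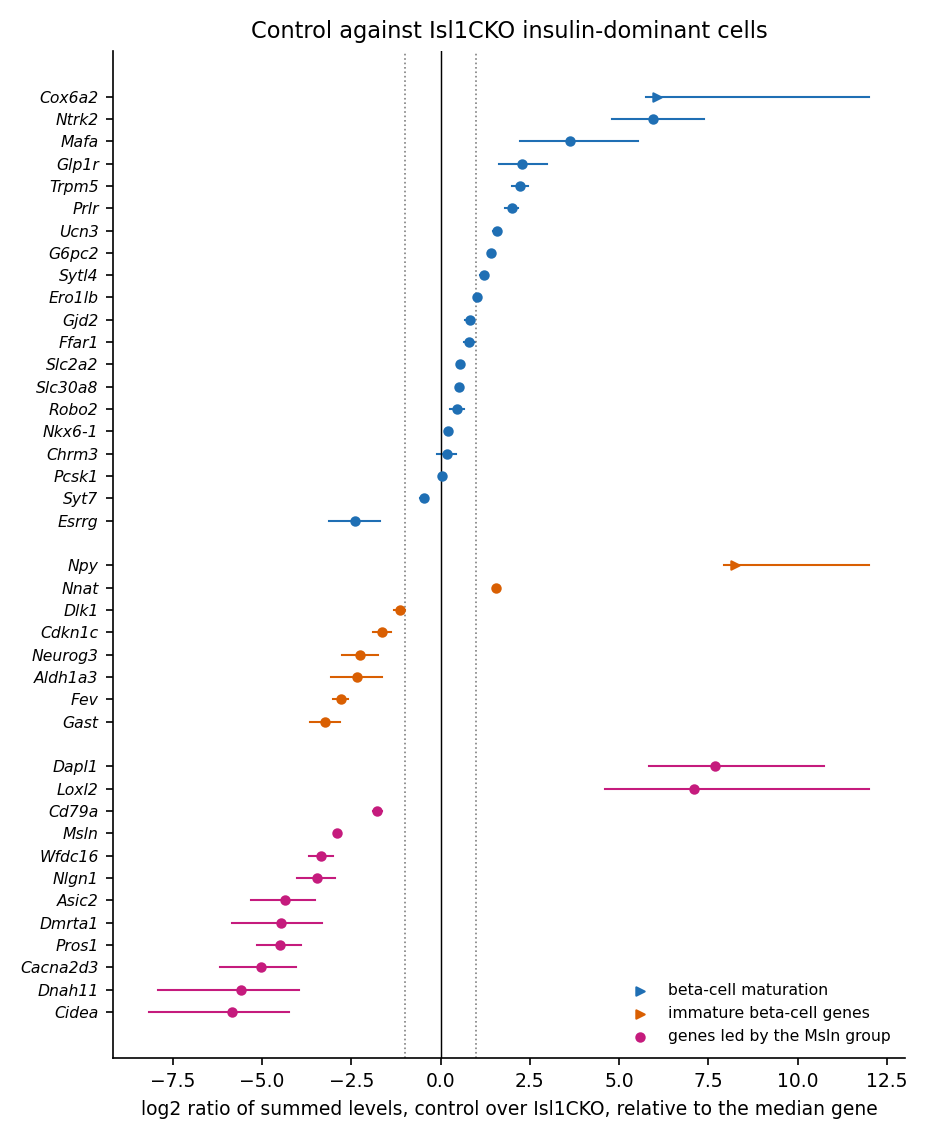
Log2 ratio of the control insulin-dominant cells over the Isl1CKO cells under the same rule (x axis, relative to the median gene) for named genes (y axis), with exact 95% counting intervals. Triangles are ratios against the floor of 3 UMIs for genes with 0 UMIs in the Isl1CKO sum, intervals past 12 are drawn to the edge, and dotted lines mark 2-fold. Colours mark maturation genes, immature genes and the list picked from these libraries; Ucn3 lies at 1.58 and Fev at -2.80.

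Matching the insulin share, to cells between 45% and 65% in both libraries, left 329 control cells and gave 5 of 18 maturation genes higher and 0 lower, where 2.57% of all genes compared were higher. Ucn3 then lay at 0.75, G6pc2 at 0.85 and Chgb at -1.51, so Ucn3 and G6pc2 were under 2-fold, and Ins1 turned from 0.33 to -0.14. In Y-only cells of both libraries Ucn3 lay at 3.85, G6pc2 at 1.95 and Chgb at -2.70. In Xist-only cells, Ucn3 lay at 0.89, G6pc2 at 1.10 and Chgb at -1.70. Ucn3, G6pc2 and Chgb kept their direction in each of these matched sets. In Y-only cells 11 of 19 maturation genes were higher, beside 7.28% of all genes, and in Xist-only cells 6 of 18, beside 2.56%.

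Group 3 was the group nearest to the Isl1CKO cells. With each group's sum thinned to 943394 UMIs, 1.76% of 3401 genes differed by 2-fold or more between group 3 and the Isl1CKO cells, against 5.00% to 9.79% for the other groups. Cldn5 was counted in 39 of 80 group 3 cells and 143 of 325 Isl1CKO cells, and Fev in 53 of 80 and 248 of 325. Median Chgb per cell was 166.5 and 203 UMIs. Compared alone with the Isl1CKO cells, a comparison added after the data were seen, group 3 had 0 of 15 maturation genes higher and 1 lower (0.57% of all genes were higher), with Ucn3 at 0.18 and G6pc2 at -0.014. Some genes still differed: Msln lay at -1.99 (167 against 738 CPM), Isl1 at -1.93 (39.6 against 168 CPM) and Fev at -0.65. The groups were formed from control cells alone, so the Isl1CKO cells had no part in defining group 3. It was singled out after the data were seen, so its smaller distance is a description. Its 80 cells held 58 Y-only and 15 Xist-only cells.

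Group 1 alone lay farther from the Isl1CKO cells than group 3, with 11 of 20 maturation genes higher (4.04% of all genes), Ucn3 at 2.34 and G6pc2 at 1.97. Txnip turned from 1.41 to -0.45 with group 1 alone. Group 1 was not the farthest: with sums thinned alike, 7.97% of genes were past 2-fold for group 1 and 9.79% for group 5.

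Against the 561 glucagon-dominant cells of the same library, the comparison used the genes that define each class. Of 10397 genes 925 were higher (8.9%) and 883 lower (8.49%), around a median shift of -1.11 that goes with the larger hormone share of the insulin-dominant cells. Ins1 lay at 9.04 and Ins2 at 8.95, and Gcg at -8.08. The beta markers outside the rule were all higher: Slc2a2 at 7.95 (381 against 3.34 CPM), Ucn3 at 7.52, Pdx1 at 4.75, Iapp at 4.63, G6pc2 at 3.90 and Nkx6-1 at 2.83. Npy had 2 UMIs in glucagon-dominant cells (9.42, 7.57 to 12.47) and Mafa had 0 (4.64 against the floor, with an exact lower bound of 4.32). Every one of the 11 alpha markers was lower, with a median of -5.18, including the regulators Irx1 (-6.96) and Irx2 (-6.08).

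Of 19 maturation genes 16 were higher and 0 lower than in glucagon-dominant cells, with a median of 3.90. The convertase gene Pcsk1, which cuts proinsulin, lay at 6.84 (217 against 4.11 CPM), Sytl4 at 8.09 and Trpm5 at 6.61. Glp1r, with 0 UMIs in the glucagon-dominant cells, lay at 5.67 against the floor, with an exact lower bound of 5.36. Msln lay at 7.34 (77.2 against 1.03 CPM). Of 23 protein folding genes 14 were higher and 0 lower, with a median of 1.15 and Hspa5 at 1.19, Ero1lb at 3.23 and Creld2 at 1.94. Of 21 receptor genes 13 were higher and 3 lower, with P2ry1 at 6.58 and Adra2a at 6.27. Mitochondrial genes had 1 of 18 higher, Cox6a2, and 0 lower. Immediate early genes had 7 of 10 lower, among them Fos (-2.41), Egr1 (-2.47) and Jun (-2.06), with actinomycin D present in the dissociation of both. Isl1 was lower at 80.9 against 469 CPM (-1.42, -1.49 to -1.36).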

How the data were processed

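Transcripts of 46983 genes were counted by barcode as UMIs in 10x Chromium 3′ v3.1 libraries. The deposited values are raw UMI counts in whole numbers. The submitters' processing notes name the build GRCm38.p6, Seurat 4.3.0.1, STAR 2.7.3a and STARsolo without saying what each did. The control matrix listed 6794880 barcodes, 1919728 with a UMI, and had not been filtered; that of Isl1CKO had, with 3020 barcodes of at least 4882 UMIs. Control barcodes were taken as cells at 6825 UMIs, 1/10 of the 99th percentile of the top 3000, which 2504 passed. Depth ran to 89375215 UMIs in the control and 78068592 in the Isl1CKO library.

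From these counts, UMIs were summed over the cells of a class and scaled to 1000000 (CPM). Sums carry exact Poisson, ratios exact conditional binomial and shares exact Clopper-Pearson 95% intervals, for counting error only. Genes with at least 50 UMIs in the sum with the higher CPM were compared, ratios were taken relative to the median gene, and a gene counts as higher or lower past 2-fold. A sum of 0 was set to a floor of 3 UMIs. With 1 library per genotype no p-value was computed. Glucagon-dominant cells held at least 5% Gcg, under 5% of Ins1 and Ins2, Sst and Ppy each, and under 10 cycling UMIs. Free RNA was read from 1864144 control barcodes under 100 UMIs. Groups came from Leiden clustering (resolution 0.5, 15 neighbours, 30 components, 2000 variable genes, 10000 UMIs per cell). Scrublet, at 0.8% expected per 1000 cells, called 63 control doublets (2.52%) and 5 in the Isl1CKO library (0.167%), too few calls to rely on there; no doublet was removed in the main values. The ratio and interval code was tested on simulated data.

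The cells and the 27 gene lists (319 genes) were chosen with earlier results of these data known. Named genes are those of the lists, the 20 most abundant, the 10 highest and 10 lowest ratios of each comparison by the interval bound nearest to 0 (without mitochondrial, ribosomal, uncharacterised, sex-linked, acinar and erythroid genes), the 15 with the largest variance over mean, the leading 5 of each group and the 10 closest to Npy and Ucn3. Cartpt, Col6a3, Ndufa12, Ptger3, Gm42418 and RP23-477A19.4 come from these rankings or were named after their values were seen. Exons of Neurod1, Igf2, Prlr, Spp1, Pdgfra, Loxl2 and Stmn1 overlap another gene on the same strand, so their counts are uncertain. Coordinates are from RefSeq on GRCm38.p6. Some listed genes are counted with their lists but not reported here by name. Alternatives varied the insulin, cycling and mitochondrial limits, doublets, depth, scaling, minimum count, background, sex, clustering and single groups. Scripts ran in Python 3.11.15 with scanpy 1.11.5, igraph 0.11.9, matplotlib 3.10.9, scikit-learn 1.9.0, pandas 2.3.3, scipy 1.17.1 and numpy 2.4.6.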

Additional observations from a re-analysis of the deposited data

How the results depend on the processing

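No paired analysis was possible because each genotype has 1 library, and for the same reason no replicate could be left out. Counts of genes higher and lower by 2-fold moved with the settings. Against the cycling cells (592 and 485, 55.0% higher) they were 320 and 74 with cells thinned to 6825 UMIs (81.2% higher), 1114 and 214 over UMIs outside hormones without centring (83.9%), 373 and 305 with cycling genes under 3 UMIs, 184 and 113 at a minimum of 200 UMIs, 337 and 183 in Xist-only cells, and 1007 lower at a minimum of 20. Against the Isl1CKO cells (397 and 447, 47.0% higher) they were 151 and 154 thinned, 670 and 676 at 20 UMIs, 165 and 177 at 200, 216 and 287 with insulin from 45% to 65%, 255 lower in Y-only cells (63.7% higher), 194 higher in Xist-only cells (35.3%), and 41 and 198 with group 3 alone. Against the glucagon-dominant cells (925 and 883) they were 475 and 498 thinned, 1400 lower at 20 UMIs, 537 and 356 at 200, and 590 and 401 in Xist-only cells. Fewer UMIs or cells enter most of these settings. With the cycling cells more genes than the 5776 of the main comparison were compared without centring (6912) and at a minimum of 20 UMIs (8625). The cause of these moves was not tested. The cells numbered 172 in the Xist-only set, 329 in the insulin-matched set, 80 in group 3 and 344 in group 1. Clustering gave 10 groups at resolution 1 and 2 from thinned counts. Among single named genes 1884 values kept their side of the 2-fold limit and 52 crossed it. Of those past it 4 turned: Gcg against Isl1CKO to -5.91 with background subtracted, Fev against cycling cells to -0.026 in Xist-only cells, G6pc2 to -0.014 with group 3 alone, and Txnip to -0.45 with group 1 alone. Of the values under 2-fold 21 changed sign, 15 against the cycling cells and 6 against the Isl1CKO cells: Ins1 (0.33) to -0.060 with insulin at least 50%, -0.14 from 45% to 65% and -0.12 with group 3 alone, Nkx6-1 (0.20) to -0.090 in Xist-only cells, and Chga (-0.15) and Ccnd1 (-0.34) to 0.35 and 0.20 with group 3 alone. Leaving out group 6 with the haemoglobin-rich cell, leaving out group 3, and group 3, group 1 or the Npy cells of group 1 alone were chosen after seeing the data. Depth limits Mafa, Glp1r and other genes with few UMIs, and the 38 cycling cells.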
